A study of Caenorhabditis elegans with 10 samples.

Results

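Among the regions that were tested for enhancer activity near genes of *Caenorhabditis elegans*, 5 had been selected on higher accessibility in the early embryo than at larval stage 3 (L3), those named for best-10, ergo-1, K12C11.3, mltn-12 and Y17D7C.1. The loci described here are these 5 regions with every ATAC-seq peak within 25 kb of them, 155 of the 55893 peaks in the lists of the 3 stages. The regions were chosen by read counts of the same libraries in those stages, so their own early embryo and L3 peaks are given as a description, without a test. Each list pooled 3 samples of whole wild-type N2 animals grown at 20 °C, early embryos from bleached adults, L3 animals 36 h after egg laying and young adults 57 h after egg laying. Every sample held many animals and all of their tissues, so a site open in fewer cells and a site less open in each cell cannot be told apart. A genomic DNA library served as input control. With the replicates pooled, no spread between samples could be set against any difference below, and the intervals cover counting error only.

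ATAC-seq uses the Tn5 transposase, which inserts adaptors preferentially where DNA is not covered by nucleosomes, so that promoters and enhancers appear as peaks of insertions. Enhancers are stretches of regulatory DNA that raise transcription from a promoter that may lie some distance away, often only in certain cells or at certain times of development. Of the genes that name the regions, best-10 belongs to the bestrophin family of anion channels. ergo-1 encodes an Argonaute protein that binds small RNAs in oocytes and embryos and acts upstream of secondary small RNAs, and mltn-12 is named as a relative of mlt-10, a gene required for molting. All 5 names were found in RefSeq's WBcel235 gene table as protein-coding genes on the same chromosome as the region. That build differs from the ce10 build of the peaks, so only the gene order was taken from it. best-10 lay between best-25 and C49A1.1, ergo-1 between Y50D4C.5 and pei-2, K12C11.3 between K12C11.5 and K12C11.6, mltn-12 between bre-1 and C53D6.8, and Y17D7C.1 between Y69H2.9 and Y17D7C.6. Whether a region was exonic, intronic or in a UTR was not determined here.

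The regions were amplified by PCR and placed before a minimal promoter and a green fluorescent protein gene. The annealing parts of the primers, without their cloning tails, are shown as listed for mltn-12 and Y17D7C.1. At mltn-12 they mark what was put into the reporter. The primers were designed to include sequence on either side of the peak.
mltn-12 forward, chromosome IV: tgatcttcctgattctcctcttg
mltn-12 reverse, chromosome IV: agactcgacacgaaggatcaa
Y17D7C.1 forward, chromosome V: tttttcgttggaaaattggaa
Y17D7C.1 flanking control forward, chromosome V: ttgtctgtaacctcagtgtgtgg
Y17D7C.1 flanking control reverse, chromosome V: ccgccaaatttgtttctcaa
The forward and reverse entries for Y17D7C.1 held the same letters, so the second is not repeated. As listed, they do not mark both ends of the Y17D7C.1 fragment. The flanking control came from sequence near the tested region that lay outside the accessibility peaks, and it served as a negative control in the reporter. The main text that describes the reporters names active fragments near gei-13, mlt-8, nhr-25, C54G6.3 and swip-10, and none of the 5 loci described here is named among them. A further active fragment is left unnamed there, and the other tested regions did not meet the paper's criteria for activity. Most of the 5 regions were therefore inactive by those criteria. Whether any was the unnamed fragment was not determined, so no statement on activity is made for a particular region. None of the flanking regions met the criteria.

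For each peak the lists give the fold enrichment at the summit over the local background, with a p-value for it. Together these fix the number of extended read ends stacked at the summit (the pileup) and the local background, and the pileup came out as a whole number for 99.97% of the early embryo peaks, 99.98% of the L3 peaks and 99.97% of the young adult peaks. The most frequent local background was the genome-wide one, at 171, 52.1 and 71.2 read ends in the early embryo, L3 and young adult lists. With the extension of 150 bp and the genome size of 90 Mb used in peak calling, these correspond to 102575405, 31280670 and 42746226 read ends. The level of a peak is therefore given below as its summit pileup divided by the genome background of its own list, which allows for the difference in depth. The deeper early embryo list held 27694 peaks, against 13040 in L3 and 15159 in the young adult.

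In the early embryo list all 5 regions were marked by a peak, in the L3 list 1 was (Y17D7C.1), and in the young adult list 2 were (ergo-1 and mltn-12). best-10 and K12C11.3 were marked in the early embryo alone. No region had a peak in all 3 stages.

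**Figure D1:**
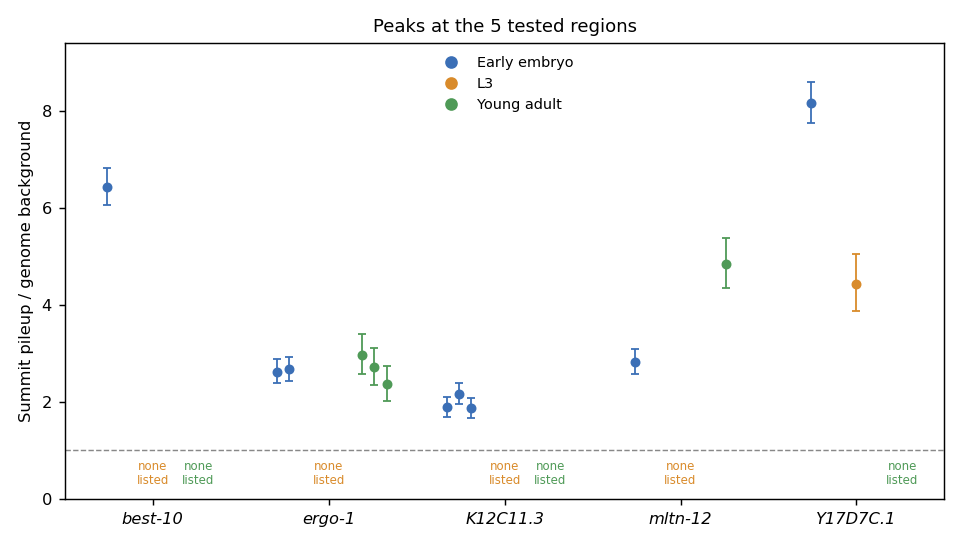
Level of every peak at the 5 tested regions, as summit pileup over the genome background of the same list (vertical axis, dashed line at 1), with exact 95% Poisson intervals. Early embryo, L3 and young adult stand from left to right within each region, and "none listed" marks a stage without a peak. Early embryo levels ran from 1.87 at K12C11.3 to 8.16 at Y17D7C.1, and the young adult peak at mltn-12 reached 4.84.

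The best-10 region (chrI:14211129-14211489, 361 bp) was covered to 98.1% by a single early embryo peak of 354 bp whose right edge was also that of the region. Its fold enrichment was 4.88, rank 1191 of 27694, and its pileup of 1100 read ends was 6.43 times the genome background (95% interval 6.06 to 6.83). Strong early embryo peaks were seldom without a later counterpart. Of the 1191 early embryo peaks with at least this fold, 140 (11.8%) had no L3 counterpart and 86 (7.22%) had none in either later stage, where the shares over all early embryo peaks were 62.7% and 50.9%. The region was selected on its difference between early embryo and L3, so these shares describe the list and are no test of the region. In L3 the nearest listed peak was 13.6 kb away, and in the young adult 2.54 kb away. The level of 6.43 was above that of 76.0% of all L3 peaks and 83.7% of all young adult peaks.

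The Y17D7C.1 region (chrV:18706411-18706635, 225 bp) was the smallest, and it was marked in both the early embryo and L3. The L3 peak of 196 bp had a pileup of 231 read ends, 4.43 times the genome background (3.88 to 5.04), and the early embryo peak of 221 bp had a pileup of 1395, 8.16 times the genome background (7.74 to 8.60). Their summits were 5 bp apart. The ratio of the L3 level to the early embryo level was 0.543 (exact 95% counting interval 0.470 to 0.625), against a median of 1.37 over the 8964 peak pairs of the whole lists in which each peak had a single counterpart. The ranks told less of this, because fold enrichment divides by the local background, which was 1.85 times the genome background at the L3 peak and 2.66 times at the early embryo peak. By fold the L3 peak ranked 9789 of 13040 and the early embryo peak 4517 of 27694, while by level they ranked 5466 and 624. The young adult had no peak at the region, and its nearest peak began 0.509 kb away.

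At mltn-12 (chrIV:8994558-8994895, 338 bp) the region was identical at both ends with a young adult peak, which had the highest level of the peaks listed there. That peak had a fold enrichment of 4.79 (rank 2484 of 15159) and a pileup of 345, 4.84 times the genome background (4.34 to 5.38). The early embryo peak of 279 bp inside it had a pileup of 482, 2.82 times the genome background (2.57 to 3.08), and its summit was 2 bp away. The ratio of the young adult level to the early embryo level was 1.72 (1.49 to 1.98), above the median of 1.32 over the 9795 such pairs of the whole lists and inside their middle range of 1.02 to 1.78. Of the 2489 young adult peaks with at least this fold, 118 (4.74%) had no L3 counterpart, where the share in the whole young adult list was 38.1%. This region too was selected for being lower in L3, so the share is no test of it. In L3 the nearest listed peak was 6.28 kb away.

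At ergo-1 (chrV:1013538-1014229, 692 bp) a wide accessible region had been split into adjoining peaks in both stages that had it. The 3 young adult peaks, of 223, 220 and 232 bp, had levels of 2.96 (2.58 to 3.39), 2.71 (2.34 to 3.12) and 2.36 (2.02 to 2.74). The 2 early embryo peaks, of 214 and 400 bp, had levels of 2.62 (2.38 to 2.87) and 2.67 (2.43 to 2.92). All of these intervals overlapped, so the levels of the stages were not separated at this depth. The left pair of peaks had summits 18 bp apart, and the ratio of the young adult level to that of the early embryo was 1.13 (0.955 to 1.33). The outer edge of the last young adult peak was the edge of the region. In L3 the nearest listed peak was 7.81 kb away.

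The K12C11.3 region (chrI:1334142-1334906, 765 bp) was the widest and had the lowest early embryo levels. It held 3 early embryo peaks of 238, 166 and 258 bp, and its ends were the outer ends of these peaks. Their levels were 1.88, 2.16 and 1.87, with intervals that overlapped and ran from 1.67 to 2.40, and with ranks by fold of 18940, 12577 and 19223 of 27694. These levels were above those of only 0.836%, 5.40% and 0.690% of the L3 peaks, so few peaks of this height were listed in L3 at all. The nearest listed peak was 5.16 kb away in L3, at chrI:1340064-1340301, and 0.723 kb away in the young adult, at chrI:1333191-1333418.

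The lists hold only the calls that passed the authors' filters. Peaks carry the running number of the peak caller, which rose along each list without a step down, and 41.1% of the early embryo, 57.5% of the L3 and 59.0% of the young adult numbers were absent after the authors' filters. Between the L3 peaks on either side of the region, 3 numbers were absent at best-10, 4 at ergo-1, 4 at K12C11.3 and 2 at mltn-12, over gaps of 28.8, 17.8, 22.8 and 21.1 kb. In the young adult list 3 were absent at best-10 (17.7 kb), 4 at K12C11.3 (6.64 kb) and 2 at Y17D7C.1 (2.18 kb). Some calls had thus been removed from the gap around every region that lacked a peak. Where in the gaps they lay, and which filter removed them, cannot be read from the lists.

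Within 25 kb of the 5 regions lay 78 early embryo, 32 L3 and 45 young adult peaks. Of the early embryo peaks, 52 (66.7%, exact 95% interval 55.1 to 76.9%) had no L3 counterpart, that is, no L3 peak sharing at least 0.5 of the length of either peak. In the whole early embryo list the share was 62.7%, which lies inside that interval. With the peaks at the tested regions left out it was 45 of 70 (64.3%, 51.9 to 75.4%). Its interval also included the whole-list share. Within 10 kb the share was 34 of 44 (77.3%, 62.2 to 88.5%), or 27 of 36 (57.8 to 87.9%) without the tested regions. The lists differ in length, and with the 13040 peaks of highest level taken from each, 27 of 42 (64.3%, 48.0 to 78.4%) had no L3 counterpart, against 46.3% of the shortened early embryo list. Without the tested regions this was 23 of 37 (62.2%, 44.8 to 77.5%), an interval that includes 46.3%. With lists shortened by fold the share was 21 of 41 (51.2%, 35.1 to 67.1%), against 45.3%. Likewise 46 (59.0%) had no young adult counterpart and 40 (51.3%) had none in either stage, against 59.0% and 50.9% of the whole list.

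Conversely, 5 of the 32 L3 peaks (15.6%, 5.28 to 32.8%) had no early embryo counterpart, against 23.7% of the whole L3 list. For the young adult the count was 12 of 45 (26.7%, 14.6 to 41.9%), against 28.3% of the whole young adult list. Both intervals included the share of the whole list.

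**Figure D2:**
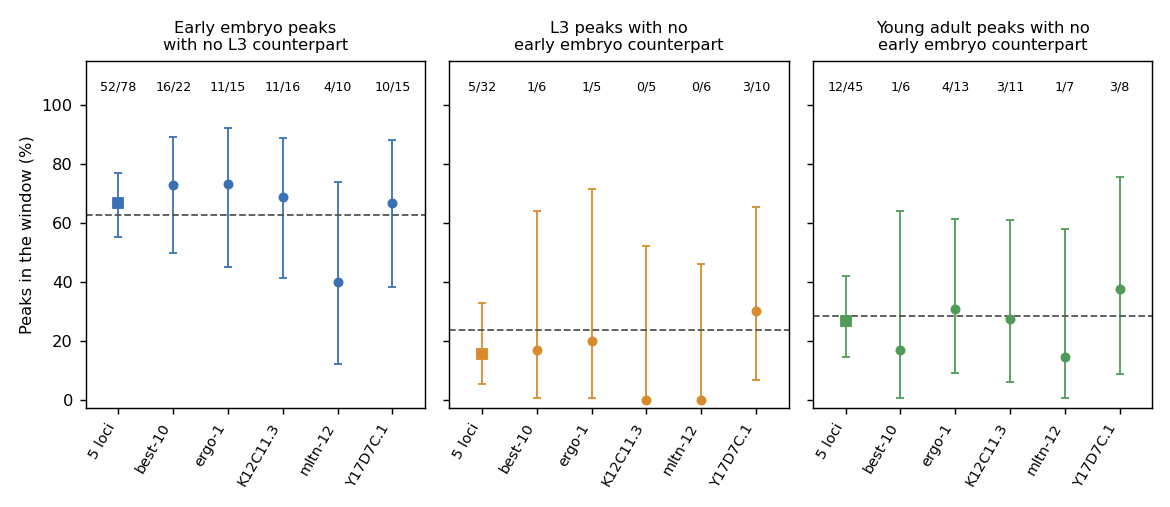
Share of peaks without a counterpart in the windows, for all 5 loci (square) and for each locus (circles), with exact 95% binomial intervals and the counts above. The dashed lines are the shares in the whole lists, 62.7% of early embryo, 23.7% of L3 and 28.3% of young adult peaks, and every interval includes its line.

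The loci differed in how densely they were marked. The best-10 window held 22 early embryo, 6 L3 and 6 young adult peaks, or 21.8, 5.96 and 5.96 per 50 kb, where chromosome I as a whole had 14.6, 6.64 and 8.36. The K12C11.3 window on the same chromosome held 16, 5 and 11 peaks, 15.8, 4.92 and 10.8 per 50 kb. On chromosome V the ergo-1 window held 15, 5 and 13 peaks (14.8, 4.93 and 12.8 per 50 kb) and the Y17D7C.1 window 15, 10 and 8 (14.9, 9.96 and 7.96 per 50 kb), where the chromosome had 11.2, 5.36 and 6.40 per 50 kb. The mltn-12 window had the fewest early embryo peaks, 10 beside 6 in L3 and 7 in the young adult, on a chromosome with 11.6, 5.72 and 6.91 per 50 kb. So the early embryo was the most densely marked stage at every locus, as in the whole lists. For early embryo peaks the excess over the chromosome was largest at best-10, for L3 peaks at Y17D7C.1 and for young adult peaks at ergo-1. Over 50 kb tiles of the genome, the middle range was 9 to 19 early embryo, 3 to 9 L3 and 4 to 10 young adult peaks. The densities just named were above it, as was that of young adult peaks at K12C11.3. All other window densities were inside it. Adjoining peaks, split between summits by the authors, were counted separately here. They made up 7 of the 13 young adult peaks at ergo-1, 4 of the 10 L3 peaks at Y17D7C.1 and 3 of the 22 early embryo peaks at best-10.

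**Figure D3:**
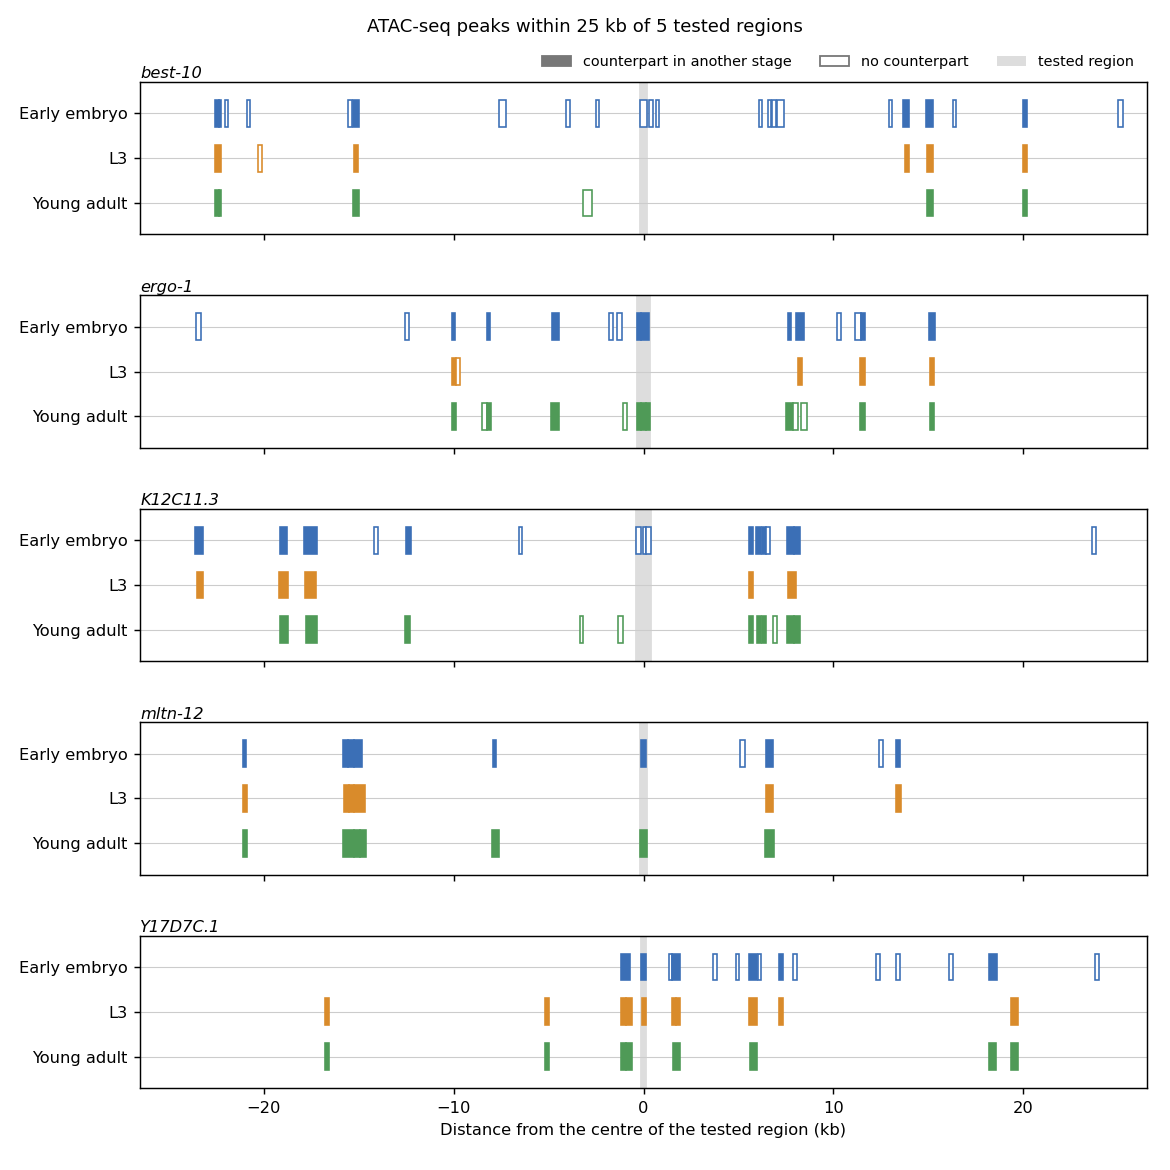
Peaks of the early embryo, L3 and young adult lists (rows) within 25 kb of each tested region (grey), by distance from its centre in kb. Filled boxes had a counterpart in another stage and open boxes had none. At best-10 a run of 11 open early embryo boxes spans the region, and at Y17D7C.1 the peaks on the left at 16.7 and 5.07 kb are shared by L3 and the young adult only.

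At best-10 the tested peak was not alone. It stood within 11 consecutive early embryo peaks without a counterpart, spread over 20.7 kb (chrI:14203718-14224399), with levels from 1.63 to 6.43, the tested peak being the highest. A young adult peak inside this stretch, at chrI:14208139-14208584, lay between neighbouring ones and overlapped none of them. The early embryo list held 65 runs of at least 11 such peaks among 5644 runs, the longest of 21, and they contained 3.21% of its peaks. The longest run had 4 peaks at K12C11.3, over 6.96 kb and including the 3 peaks of the tested region, 4 at Y17D7C.1, 2 at ergo-1 and 1 at mltn-12.

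The strongest early embryo peak of all 5 windows also lay at best-10, 15.1 kb from the region (chrI:14226185-14226578), and it was kept in the later stages at a lower level. Its early embryo level was 10.5 (10.1 to 11.03), its L3 level 2.55 (2.14 to 3.02) and its young adult level 2.68 (2.31 to 3.09). Its ratio of L3 to early embryo was 0.242 (0.202 to 0.289) and that of young adult to early embryo 0.254 (0.218 to 0.296), the lowest of all pairs in the 5 windows. Being present in every list, this peak is counted as shared, although the change in its level was larger than at Y17D7C.1.

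The opposite order was seen near mltn-12 and ergo-1. At 6.70 kb from the mltn-12 region, the site at chrIV:9001133-9001592 had levels of 3.05 (2.79 to 3.32) in the early embryo, 3.01 (2.56 to 3.52) in L3 and 9.92 (9.21 to 10.7) in the young adult, where it ranked 371 of 15159 by fold. A cluster of 3 adjoining young adult peaks 15.1 kb on the other side reached 10.6 (9.90 to 11.4), 5.02 times (4.43 to 5.71) the early embryo level of its counterpart. At ergo-1, a peak 9.99 kb from the region had levels of 2.15 (1.93 to 2.38) at the early embryo, 4.76 (4.18 to 5.39) at L3 and 6.51 (5.93 to 7.13) in the young adult. The windows of regions listed as embryo-open thus held neighbours that were higher in the young adult than in the early embryo. That order was common, as the median ratio of these levels was 1.32 over the pairs of the whole lists. The ratios at the sites named here, 3.26, 5.02 and 3.03, were above the middle range of 1.02 to 1.78.

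In the K12C11.3 window the strongest peak of each stage was the same site, 18.9 kb from the region (chrI:1315393-1315771 in the early embryo). Its level was 4.49 (4.18 to 4.82) in the early embryo, 8.44 (7.67 to 9.27) in L3 and 5.56 (5.02 to 6.13) in the young adult. In the Y17D7C.1 window the strongest young adult peak was at chrV:18712108-18712516, 5.73 kb from the region. The levels of this site were 8.43 (8.00 to 8.88) in the early embryo, 6.06 (5.41 to 6.77) in L3 and 13.6 (12.7 to 14.4) in the young adult, the last being the highest of any peak in the 5 windows. The summits of this site differed, the L3 summit lying 136 bp and the young adult summit 120 bp from that of the early embryo, so the levels belong to different positions within it.

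Some peaks that the early embryo lacked were shared between the later stages. At Y17D7C.1 all 3 L3 peaks without an early embryo counterpart were matched by the 3 young adult ones. The strongest of them, 19.5 kb from the region, had a level of 6.04 (5.48 to 6.63) in the young adult and 6.44 (5.77 to 7.17) in L3 (chrV:18725876-18726255). The pair at chrV:18689769-18689972 had the same edges in both lists, with levels of 3.87 in the young adult and 4.07 in L3. Elsewhere, L3 peaks without an early embryo counterpart were single, 1 at best-10 (level 2.63, chrI:14191002-14191214) and 1 at ergo-1 (level 3.74, chrV:1004019-1004202), and K12C11.3 and mltn-12 had none. The young adult had 1 at best-10, 4 at ergo-1 (the highest by fold at chrV:1021771-1022024, level 2.30), 3 at K12C11.3 (the highest at chrI:1331166-1331360, level 2.93) and 1 at mltn-12 (chrIV:8979794-8980120, level 5.61), which had an L3 counterpart.

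Levels could be compared between stages at the sites where a peak had a single counterpart. In the 5 windows 22 pairs joined L3 with the early embryo, and the ratio of the L3 to the early embryo level had a median of 1.05, with 17 of 22 pairs below the median of the whole lists, 1.37. Without the pair at the Y17D7C.1 region, the only tested region among them, 16 of 21 were below it. The ratio of young adult to early embryo had a median of 1.26 over 28 pairs, 16 of them below the whole-list median of 1.32. The ratio of young adult to L3 had a median of 1.16 over 18 pairs, and 1 of 18 was below the whole-list median of 0.876. Thus, by level, the shared neighbours of these regions were on the low side in L3 relative to both other stages. Level does not allow for the local background, which differed between stages at some loci. Pairs within a window lie close together and come from the same libraries, so this is a description without a test.

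**Figure D4:**
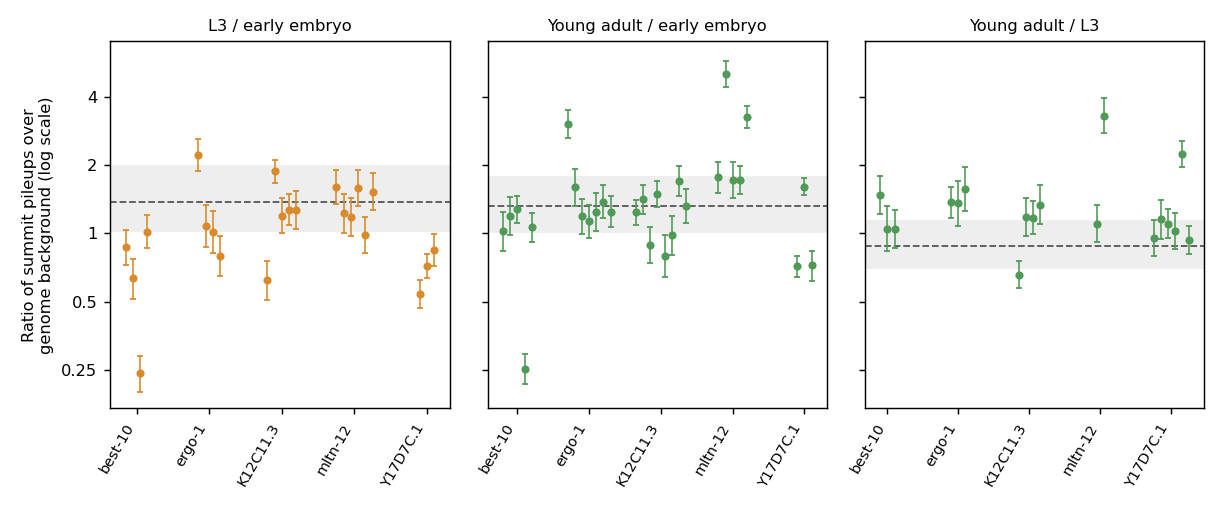
Ratio of levels between the later and the earlier stage (log scale) at peaks with a single counterpart, by locus, with exact 95% counting intervals. Dashed lines and grey bands are the median and the middle 0.5 of the pairs in the whole lists, with medians of 1.37 for L3 over early embryo, 1.32 for young adult over early embryo and 0.876 for young adult over L3.

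The low L3 levels were not evenly spread over the loci. All 4 pairs at best-10, with a median ratio of L3 to early embryo of 0.751, and all 3 at Y17D7C.1, with a median of 0.719, were below 1.37. At ergo-1 3 of 4 pairs (median 1.05) and at K12C11.3 4 of 5 (median 1.27) were below it. At mltn-12 the 6 pairs were divided evenly, with a median of 1.38. For young adult over early embryo, best-10 again had all 5 pairs below the whole-list median, while mltn-12 had none of 5, with ratios from 1.72 to 5.02.

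For comparison, the windows of the tested regions near swip-10, gei-13 and C54G6.2, which were selected on the opposite difference, held 58 early embryo, 29 L3 and 24 young adult peaks. At the 5 embryo-open loci 5 of 32 L3 peaks had no early embryo counterpart, against 9 of 29 there and 23.7% of the whole list. Of the early embryo peaks, 52 of 78 (66.7%) had no L3 counterpart, against 37 of 58 (63.8%) there and 62.7% of the whole list. Leaving out the tested regions reversed this order, to 45 of 70 (64.3%) against 37 of 54 (68.5%). With tested regions left out on both sides, 16 of 21 L3 to early embryo ratios at the embryo-open loci and 1 of 12 at the swip-10, gei-13 and C54G6.2 loci fell below the whole-list median. The windows near hlh-11, tcc-1 and dcs-1 held 31 early embryo, 10 L3 and 17 young adult peaks. Of the 31 early embryo peaks 22 (71.0%) had no L3 counterpart, or 22 of 28 (78.6%) with the tested regions left out. The hlh-11 and gei-13 windows overlap by 23.5 kb, and the differences between these groups of loci were not tested.

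The local background, the peak caller's estimate of read density in the wider surroundings of a summit, separated Y17D7C.1 from the other loci. In its window the ratio of local to genome background had medians of 2.41, 1.73 and 1.75 over early embryo, L3 and young adult peaks, with the highest values at 3.17, 2.17 and 2.50. In the whole lists the medians were 1.03, 1.12 and 1.08, and 95% of peaks were below 1.71, 2.54 and 2.16. For L3 peaks the comparison windows were raised too. Their medians were 2.03 (up to 3.70) near hlh-11, tcc-1 and dcs-1 and 1.64 (up to 2.87) near swip-10, gei-13 and C54G6.2. Early embryo medians there were 1.10 and 1.07, and young adult medians 1.24 and 1.13. At best-10 the early embryo alone was raised, with a median of 1.22 and a highest value of 1.66 against at most 1.23 among L3 and 1.24 among young adult peaks. At mltn-12 the young adult alone was raised, to 1.76 at the cluster of adjoining peaks. ergo-1 and K12C11.3 stayed between 1.00 and 1.11 in every stage.

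**Figure D5:**
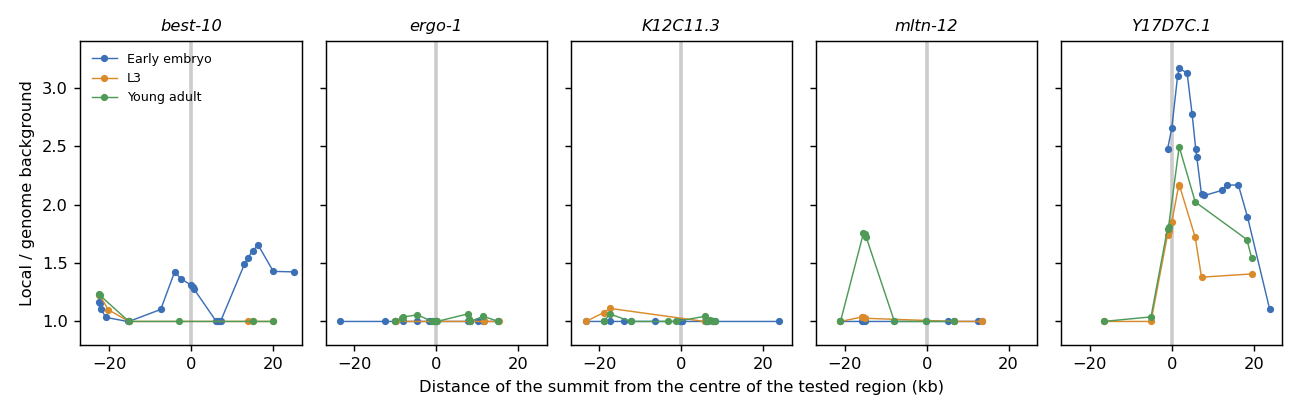
Local background at each summit divided by the genome background of the same list (vertical axis), by distance from the centre of the tested region in kb, with a colour for each stage. Y17D7C.1 is raised in all 3 stages, up to 3.17 in the early embryo, best-10 in the early embryo up to 1.66, and mltn-12 in the young adult up to 1.76.

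Because fold enrichment divides by this local background, the peaks of the Y17D7C.1 window ranked low by fold and high by level. Of its 15 early embryo peaks 5 were in the upper 0.5 of the list by fold and 0 in the upper 0.1, while their median level was 4.40 against 2.33 for the whole list. The median early embryo level was 2.60 at best-10, 2.15 at ergo-1, 2.24 at K12C11.3 and 2.27 at mltn-12. The window of Y17D7C.1 thus had the highest median level of the 5 in the early embryo, but level does not allow for the local background. Why the local background was raised there was not tested.

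Early embryo peaks in the windows had a median width of 230 bp (103 to 675 bp), L3 peaks 241 bp (184 to 567 bp) and young adult peaks 276 bp (111 to 601 bp), where the whole lists had 240, 286 and 286 bp. The early embryo peaks without an L3 counterpart were narrower and lower than those with a counterpart, with medians of 219 and 310 bp and levels of 2.43 and 2.95. The whole list showed the same order, with 224 and 276 bp and levels of 2.15 and 2.87. The order of levels did not hold throughout. At mltn-12 the 4 early embryo peaks without an L3 counterpart had a median level of 2.51 and the 6 with one 2.27. Early embryo peaks without a young adult counterpart were lower than those with one at every locus and in the whole list. Only when pooled over the 5 loci was this reversed, with 2.52 for those without one and 2.46 for those with one. Y17D7C.1, where both medians were highest, held 11 of the 46 pooled peaks without one and 4 of the 32 with one. The 5 L3 peaks without an early embryo counterpart had a median level of 3.74 and the 27 with one 3.36, where the whole list had 3.53 and 4.10. Those without one were lower at best-10 (2.63 and 2.78) and Y17D7C.1 (4.07 and 4.57), and the 1 at ergo-1 was higher (3.74 and 2.31). Young adult peaks without and with an early embryo counterpart had 2.34 and 3.57. At the shared sites the summits had a median distance of 10.5 bp between L3 and the early embryo and 7.5 bp between the young adult and the early embryo, against 11 bp in either comparison over the whole lists. At Y17D7C.1 the 3 pairs of young adult and early embryo peaks had summits 4, 120 and 150 bp apart.

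The counts of later peaks without an early embryo counterpart moved with the overlap rule. For the young adult the count was 9 of 45 with any overlap and 16 of 45 when 0.5 of both peaks had to be shared, against 12 of 45 here, and for L3 it was 5 and 7 of 32, against 5. Only 2 overlaps between stages had a larger share between 0.4 and 0.6, both at ergo-1, where the young adult peaks chrV:1021771-1022024 and chrV:1022177-1022505 shared 0.413 and 0.474 of their length with the early embryo peak chrV:1021920-1022332 and were counted as having no counterpart. At the edge of the windows, the last early embryo peak inside was at 24.8 kb and the first outside at 25.1 kb at best-10, with folds of 1.77 and 2.07. At K12C11.3 the first L3 peak outside, at 26.3 kb, had a fold of 12.3, higher than any peak of the 5 windows.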

How the data were processed

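The processed files were lists of ATAC-seq peaks on ce10 for the early embryo, L3 and young adult, each pooled over its replicates. The authors mapped reads with Bowtie2 2.1.0, removed duplicates with Picard, ran MACS with a q cutoff of 0.05, split them between summits, kept those found across replicates and removed blacklisted peaks and those overlapping input peaks by 0.2. Per peak the deposited lists give a score, the fold enrichment ratio at the summit and −log10 p and q values. The score was not used.

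From these, the pileup k and local background were solved, with fold = (k + 1)/(background + 1) and a Poisson tail for p. A pileup was called whole within 5% of a step. Nothing was log-transformed and no test was run. Intervals are exact (Clopper-Pearson or Poisson, 95%). Depth is that of the pooled lists, and PCR reads carry no molecular identifiers.

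Windows reached 25 kb from each region. Counterparts shared at least 0.5 of either peak, checked against bedtools 2.31.1 with 0 differences and tested on simulated data. Python 3.11.15, numpy 2.4.6, scipy 1.17.1 and pandas 2.3.3 were used. By a rule, the text names all peaks at the regions, the highest by fold per window and stage, the nearest where none was listed, the highest late peak without an early embryo counterpart, and peaks next to a threshold. The highest shared peaks at mltn-12 and ergo-1 and the Y17D7C.1 pair with equal edges were singled out after their values were seen. Members and lists were chosen with earlier results of these data known. Alternatives were other overlaps, thresholds, list lengths, reaches, placement and joined peaks.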

Additional observations from a re-analysis of the deposited data

How the results depend on the processing

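Of 142 recomputed values over 10 results, 123 stayed within the counting interval of the share or within 1.5 times the count. With 13040 peaks from each list, 42 early embryo peaks were left in the windows by −log10 q, 41 by fold and 42 by level, and the share without an L3 counterpart was 52.4%, 51.2% and 64.3%, against 45.3%, 45.3% and 46.3% of the lists so shortened. With tested regions left out it was 48.6%, 45.7% and 62.2%. By −log10 q, 31.25% of L3 and 41.0% of young adult peaks had no early embryo counterpart, against 45.7% and 48.1% of the lists, by fold 31.25% and 39.5%, against 45.6% and 47.5%, and by level 46.9% and 50.0%, against 46.8% and 49.6%. K12C11.3 lost its early embryo peaks in the lists shortened by −log10 q or by level and kept 1 or more by fold, so 4 or 5 regions were marked. Reaches of 10 and 50 kb gave 44 and 153 early embryo, 14 and 67 L3, and 28 and 86 young adult peaks, and at 10 kb the early embryo share without an L3 counterpart was 77.3% (34 of 44), above the interval at 25 kb, while without the tested regions it was 27 of 36, inside its interval. Leaving out Y17D7C.1 left 0 regions with an L3 peak, and leaving out ergo-1 or mltn-12 left 1 with a young adult peak. Lists shortened by level and loci left out were chosen after seeing the data. Other overlaps, stricter q, joined peaks and placement by summit moved no share out of its interval. The causes were not tested. No paired analysis was possible because the lists pool the replicates and their columns carry no replicate. With pooled lists there is no error between samples, and whether a region without a listed peak had a call that was filtered out cannot be read from the lists.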
